A study of Homo sapiens with 6 samples.

Results

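Aminoacyl-tRNA synthetases are the enzymes that load each amino acid onto its tRNA. The genes examined were 36 synthetase genes, chosen by symbol from the 23710 genes of the deposited count table. They were 20 genes for enzymes of the cytosol and 16 for enzymes of the mitochondrion, whose symbols end in 2. All 36 were in the table and all 36 passed the filter on low counts. The RNA came from THP-1, an established monocyte-like leukaemia line of human origin, exposed for 6 h to 10 uM mebendazole or, as control, to the vehicle DMSO alone. Mebendazole, given against intestinal worms, blocks the assembly of microtubules. Each group had 3 libraries, and the labels join them into 3 pairs of 1 treated and 1 control sample. All libraries came from 1 cell line, and nothing in the labels tells if a pair was its own culture, so the spread behind each p-value, that between samples, could be technical. The design asks which transcripts differ between drug and vehicle.

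As background, cytosolic and mitochondrial translation mostly use synthetases from separate nuclear genes, and the mitochondrial enzymes are imported after synthesis in the cytosol. GARS and KARS are exceptions, since each gene supplies both compartments. Many cytosolic synthetases belong to the multisynthetase complex, which is held together by the scaffold proteins AIMP1, AIMP2 and EEF1E1. The others lie outside that complex. When amino acids are short or protein folding fails, the transcription factor ATF4 is known to raise many cytosolic synthetase genes together with amino acid transporters and biosynthetic enzymes. WARS is also known as an interferon gamma-induced gene in monocytes.

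Most synthetase genes were lower with mebendazole in both compartments. Of the 20 cytosolic genes, 14 fell and 4 rose, and of the 16 mitochondrial genes, 12 fell and 2 rose (edgeR quasi-likelihood test, adjusted p under 0.05). Of all 13591 genes tested, 41.7% were called lower and 40.6% higher, 82.3% in all, so a call by itself was common. The median log2 fold change was -0.69 for the cytosolic and -0.41 for the mitochondrial genes, against -0.026 for all genes tested. Against a change of 1.5-fold (edgeR glmTreat), 10 cytosolic and 6 mitochondrial genes were lower and 1 cytosolic gene, WARS, was higher, where 42.5% of all genes passed, 21.2% lower and 21.3% higher. With libraries scaled to their totals in place of TMM, the median of all genes shifted by -0.24, and 17 cytosolic genes were lower and 3 higher, and 14 mitochondrial genes lower and 1 higher, beside 53.9% lower and 30.8% higher among all genes (84.6% called). Levels are given as CPM, the share of a library's reads that a gene took, on a common scale set by TMM factors. The CPM of the groups did not overlap for 32 of the 36 genes, with mebendazole lower for 26 and higher for 6, where mebendazole was lower without overlap for 41.9% and higher for 40.5% of all genes tested. In bulk RNA, less RNA per cell and fewer cells that express a gene cannot be told apart.

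**Figure D1:**
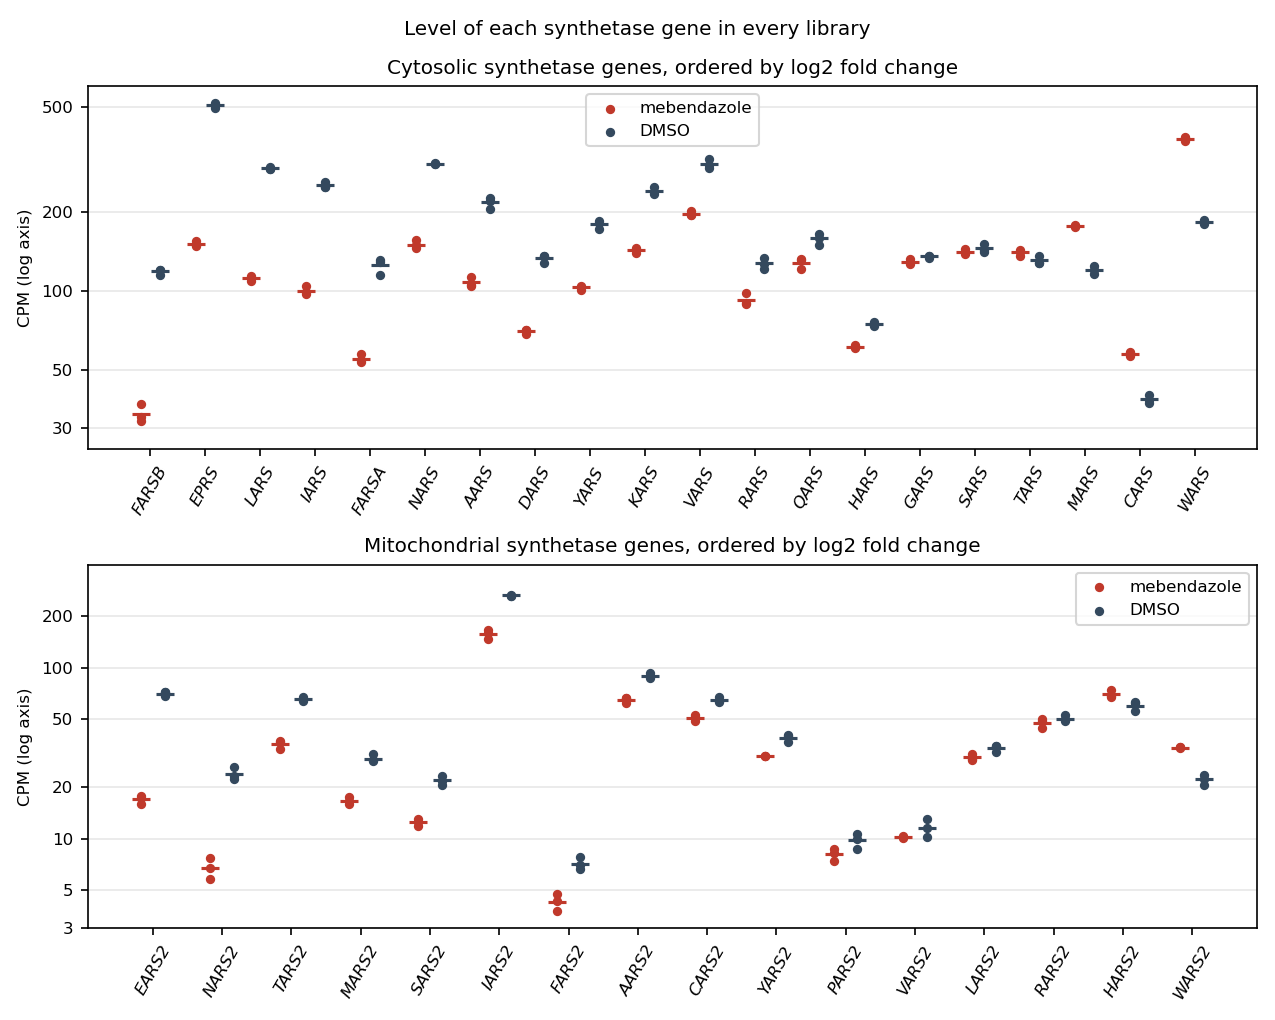
Level of each synthetase gene in every library, in CPM (log axis), for cytosolic genes (top) and mitochondrial genes (bottom), ordered from the largest fall to the largest rise. Points are the 3 mebendazole libraries (left of each pair of columns) and the 3 DMSO libraries (right), and bars are group means; EPRS lay at 148 to 154 CPM with mebendazole and 495 to 519 CPM with DMSO, and WARS at 372 to 383 CPM with mebendazole and 179 to 185 CPM with DMSO.

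A log2 fold change is mebendazole over DMSO with the SE that the F test implies. Among cytosolic genes, the falls were led by the beta subunit of phenylalanyl-tRNA synthetase and by EPRS, the fused enzyme for glutamate and proline. FARSB had 31.9, 37.0 and 33.1 CPM with mebendazole, against 115, 120.4 and 119.8 CPM with DMSO. EPRS had 148, 149 and 154 CPM with mebendazole, against 509, 519 and 495 CPM with DMSO. The treated libraries were below every control library for both genes, at 28.7% of the DMSO level for FARSB (log2 fold change -1.80, SE 0.051, adjusted p = 7.1e-42, edgeR) and 29.6% for EPRS (-1.76, SE 0.035, adjusted p = 1.3e-50, edgeR). FARSA, the other subunit of the same phenylalanine enzyme, also fell, with 57.5, 54.8 and 53.4 CPM with mebendazole and 129, 115 and 131 CPM with DMSO (-1.17). LARS and IARS, which charge leucine and isoleucine tRNAs, averaged 112 ± 2.37 and 100 ± 3.57 CPM with mebendazole, against 292 ± 3.15 and 252 ± 6.67 CPM with DMSO (SD, n = 3 each).

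The same complex that holds EPRS, LARS and IARS also holds MARS, QARS, RARS, KARS and DARS. Of these 8 enzymes of the multisynthetase complex, 7 fell and 1 rose, with a median log2 fold change of -0.83. That is 87.5% lower and 12.5% higher, beside 41.7% lower and 40.6% higher among all genes tested. KARS and DARS, for lysine and aspartate, lay at 59.7% and 52.9% of the DMSO level. RARS and QARS, for arginine and glutamine, lay at 72.8% and 80.9%. MARS, for methionine, was the member that rose, with 175, 178 and 176 CPM with mebendazole, against 119.8, 116 and 124 CPM with DMSO (log2 fold change 0.56, SE 0.039, adjusted p = 1.0e-20, edgeR). Its treated libraries were all above the controls. MARS shares 0.455% of its 50-base stretches with its neighbour DDIT3, the gene for CHOP. All 3 scaffold genes fell. AIMP2 had 12, 10.7 and 10.9 CPM with mebendazole and 33.7, 35.2 and 37.6 CPM with DMSO (-1.66), AIMP1 averaged 81.2 ± 1.04 CPM with mebendazole and 127 ± 4.08 CPM with DMSO (-0.64; SD, n = 3 each), and EEF1E1 lay at 2.18 ± 0.212 CPM with mebendazole and 5.41 ± 0.636 CPM with DMSO (-1.30).

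The 12 cytosolic genes outside the multisynthetase complex were mixed, with 7 lower, 3 higher and 2 not called (median log2 fold change -0.46). That is 58.3% lower and 25% higher, beside 41.7% lower and 40.6% higher among all genes tested. NARS and AARS, for asparagine and alanine, were near 49.1% and 49.7% of the DMSO level, YARS and VARS, for tyrosine and valine, at 57.5% and 64.4%, and HARS, for histidine, at 81.9%. Of the 14 cytosolic genes that fell, HARS had the largest adjusted p (2.3e-07, edgeR). WARS, for tryptophan, showed the largest rise of the 36 genes. It had 383, 380.2 and 372 CPM with mebendazole, against 185, 179 and 183 CPM with DMSO, so that the groups lay far apart (2.07-fold, log2 fold change 1.05, SE 0.034, adjusted p = 1.9e-38, edgeR). CARS, for cysteine, had 58.3, 58.2 and 56.5 CPM with mebendazole, against 37.6, 40.3 and 38.3 CPM with DMSO (1.49-fold, adjusted p = 5.0e-15, edgeR). TARS, for threonine, was called higher by little, at 139.9 ± 3.65 CPM with mebendazole and 130.4 ± 4.34 CPM with DMSO (SD, n = 3 each; log2 fold change 0.10, adjusted p = 0.016, edgeR). That call was lost without pair 1 (adjusted p = 0.13, edgeR), with DESeq2 (adjusted p = 0.053), without a filter on low counts (adjusted p = 0.059, edgeR) and in genes averaging 10 CPM or more (adjusted p = 0.11, edgeR), and with library totals TARS was called lower (-0.14). SARS, for serine, had 138, 141 and 144 CPM with mebendazole and 143, 141 and 150.5 CPM with DMSO, and the groups overlapped. GARS, for glycine, had 132, 129 and 126 CPM with mebendazole and 133, 136 and 136 CPM with DMSO. Neither SARS (adjusted p = 0.33) nor GARS (adjusted p = 0.14) passed the test in edgeR, but GARS did without pair 1 (-0.093, adjusted p = 0.049) and in genes averaging 10 CPM or more (-0.096, adjusted p = 0.025), and with library totals SARS (-0.28) and GARS (-0.31) were both called lower.

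**Figure D2:**
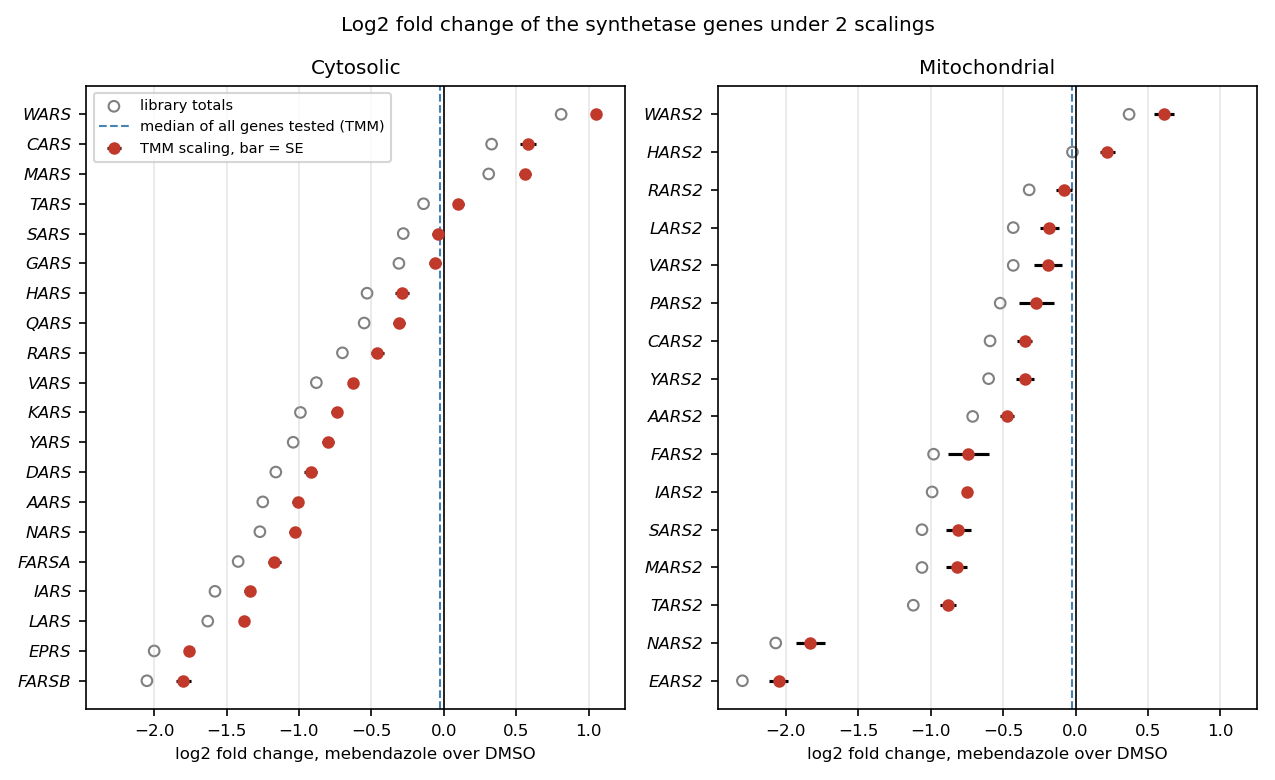
Log2 fold change (mebendazole over DMSO) of the 20 cytosolic and 16 mitochondrial synthetase genes, with TMM scaling (filled points, bars are SE) and with library totals (open points). The open points lie to the left by about the shift of -0.24; WARS, CARS, MARS and WARS2 lie above 0 under both scalings, while TARS and HARS2 change side.

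Mitochondrial genes fell in a wide range. EARS2, which charges the mitochondrial glutamate tRNA, had 17.7, 17.3 and 16 CPM with mebendazole, against 71.6, 68.1 and 71.9 CPM with DMSO, the largest fall of the 36 genes (24.1% of the DMSO level, log2 fold change -2.05, SE 0.063, adjusted p = 8.8e-40, edgeR). NARS2, for asparagine, had 7.65, 5.83 and 6.69 CPM with mebendazole, against 22.4, 23.3 and 26.3 CPM with DMSO (-1.83, SE 0.098, adjusted p = 1.8e-26, edgeR). No treated library reached the lowest control library for either gene. TARS2, MARS2, SARS2 and IARS2, for threonine, methionine, serine and isoleucine, lay between 54.4% and 59.6% of the DMSO level, and FARS2, for phenylalanine, at 59.9% on a low level of 4.28 ± 0.502 CPM with mebendazole and 7.13 ± 0.568 CPM with DMSO (SD, n = 3 each). AARS2, CARS2, YARS2 and LARS2, for alanine, cysteine, tyrosine and leucine, lay between 72.3% and 88.0%.

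PARS2, for proline, was called lower although its groups overlapped, with 7.44, 8.74 and 8.18 CPM with mebendazole and 10.7, 8.68 and 9.99 CPM with DMSO (-0.27, adjusted p = 0.026, edgeR). The call of PARS2 was lost without pair 1 (adjusted p = 0.34) or pair 3 (adjusted p = 0.096) in edgeR and in DESeq2 (adjusted p = 0.27), and that of LARS2 without pair 1 (adjusted p = 0.059, edgeR) and in DESeq2 (adjusted p = 0.16). RARS2 (adjusted p = 0.19) and VARS2 (adjusted p = 0.088), for arginine and valine, did not pass in edgeR, though RARS2 did without pair 1 (-0.14, adjusted p = 0.038), VARS2 in genes averaging 10 CPM or more (-0.22, adjusted p = 0.042), and both did with library totals (-0.32 and -0.43). Of the genes that rose, WARS2 is the mitochondrial partner of WARS. WARS2 had 34.2, 34.2 and 33.9 CPM with mebendazole, against 22.4, 20.7 and 23.6 CPM with DMSO (1.53-fold, log2 fold change 0.61, SE 0.068, adjusted p = 1.1e-12, edgeR). Tryptophan was the only amino acid whose genes rose in both compartments. HARS2, for histidine, had 68.2, 74.3 and 67.6 CPM with mebendazole and 55.4, 62.0 and 62.7 CPM with DMSO (0.22, adjusted p = 5.3e-05, edgeR), but lay at -0.021 and was not called with library totals.

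HARS and HARS2 share part of their sequence, which limits both values. Of the 50-base stretches of the principal transcript in GENCODE release 29, on either strand, 23.4% for HARS and 15.7% for HARS2 also occur in transcripts of another gene. In each other they share 16.2% of the stretches of HARS and 11.5% of those of HARS2. Reads from these shared parts may be split between the genes. SARS2 shared 86.9%, mostly with the GENCODE entry AC011455.2. The other 33 members shared under 10%, WARS 9.14% and YARS 9.31% among them. The kit, TruSeq RNA v2, does not mark strand, so reads of overlapping antisense genes cannot be told apart.

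Summed over each compartment, the synthetase mRNA fell by nearly the same factor. The 20 cytosolic genes together had 2534, 2524 and 2514 CPM with mebendazole, against 3809.5, 3726 and 3810.2 CPM with DMSO, and so reached 66.7% of the DMSO mean. The 16 mitochondrial genes together had 602, 596 and 592 CPM with mebendazole, against 868, 853 and 873 CPM with DMSO, 69.1% of the DMSO mean. Sums weigh abundant genes most. WARS averaged 378 CPM with mebendazole and 182 with DMSO, EPRS 150.2 and 508, and IARS2 158 and 265. The median log2 fold changes, which weigh genes alike, differed more between compartments (-0.69 cytosolic, -0.41 mitochondrial). The ratio of cytosolic to mitochondrial reads within a library does not depend on scaling between libraries. It was 4.21, 4.23 and 4.25 with mebendazole and 4.39, 4.37 and 4.37 with DMSO, close together but not overlapping.

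Partners for the same amino acid differed in both directions. For 17 cytosolic and mitochondrial partners covering 16 amino acids (FARSA and FARSB share FARS2, and EPRS is set against both EARS2 and PARS2), the log2 ratio of cytosolic to mitochondrial reads was lower with mebendazole for 10 and higher for 7, with a median difference of -0.43. The ratio fell most for proline, where EPRS over PARS2 was 4.21 ± 0.11 with mebendazole and 5.70 ± 0.18 with DMSO on the log2 scale (SD, n = 3 each). For leucine, LARS over LARS2 was 1.91 ± 0.075 with mebendazole and 3.11 ± 0.056 with DMSO. In the other direction, MARS over MARS2 was 3.40 ± 0.073 with mebendazole and 2.03 ± 0.098 with DMSO, a difference of 1.37. CARS over CARS2 changed sign, with log2 ratios of 0.18, 0.14 and 0.22 with mebendazole and -0.74 in all 3 DMSO libraries, so that CARS had fewer reads than CARS2 with DMSO and more with mebendazole. HARS over HARS2 changed sign the other way, with -0.16, -0.29 and -0.12 with mebendazole and 0.44, 0.25 and 0.27 with DMSO. Divided by the length of the principal transcript, CARS stayed below CARS2, at 21.5 against 27.1 CPM per kilobase with mebendazole and 14.4 against 34.5 with DMSO. HARS still lay below HARS2 with mebendazole (25.1 against 27.9) and above it with DMSO (30.7 against 23.9). The smallest difference was for glutamate, where the log2 ratio of EPRS to EARS2 was higher by 0.30 with mebendazole, with an SD of 0.16 over the pairs. These ratios are given as a description and were not tested.

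**Figure D3:**
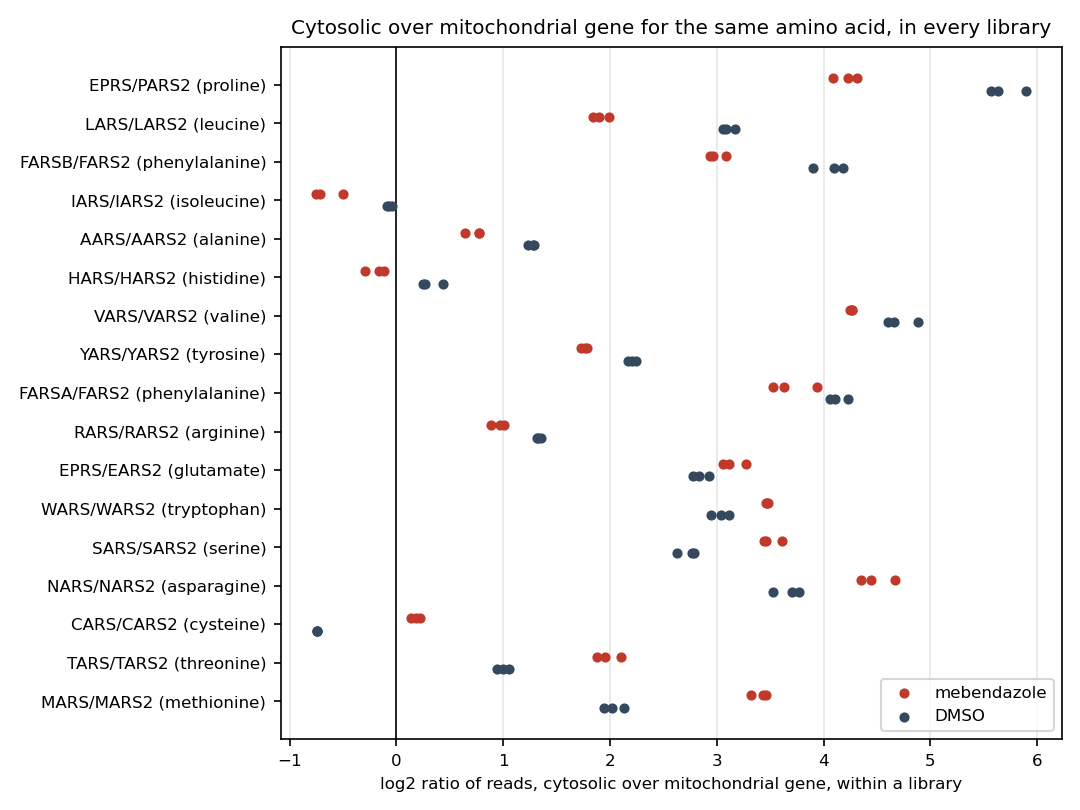
Log2 ratio of reads of the cytosolic over the mitochondrial gene for the same amino acid, in each of the 3 mebendazole libraries (upper points) and 3 DMSO libraries (lower points). Rows run from the largest decrease, EPRS over PARS2 (-1.49), to the largest increase, MARS over MARS2 (1.37), and the line at 0 marks equal reads; lengths of the genes are not taken into account.

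Divided by the length of the principal transcript, levels can be set between genes. With DMSO, KARS (119 ± 3.58 CPM per kilobase), EPRS (101 ± 2.35) and NARS (98.1 ± 0.159) stood highest, and WARS was in place 11 at 58.9 ± 0.918 CPM per kilobase (SD, n = 3). With mebendazole WARS stood first at 122 ± 1.75 CPM per kilobase, ahead of SARS (76.1 ± 1.46) and KARS (71.3 ± 1.35), while EPRS was in place 15 at 30 ± 0.674, within the spread of FARSA (30.4 ± 1.15) and DARS (29.7 ± 0.576). The median was 32.1 CPM per kilobase with mebendazole and 57.6 with DMSO for cytosolic genes, and 9.25 with mebendazole and 14.2 with DMSO for mitochondrial genes. IARS2 stood apart among mitochondrial genes at 44.4 ± 2.75 CPM per kilobase with mebendazole and 74.4 ± 0.649 with DMSO, and VARS2 was last of the 36 genes in both groups, at 2.50 ± 0.0334 with mebendazole and 2.85 ± 0.351 with DMSO.

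By catalytic fold, of which synthetases have a pair of unrelated classes, 12 of the 18 class I genes fell and 4 rose, with a median log2 fold change of -0.35, and 13 of the 17 class II genes fell and 2 rose, with a median of -0.74. These are 66.7% and 76.5% lower and 22.2% and 11.8% higher. Among all genes tested 41.7% were lower and 40.6% higher, with a median of -0.026. The difference between the classes was not tested. The class II genes called higher were TARS and HARS2; with library totals TARS was called lower (-0.14) and HARS2 was not called (-0.021). EPRS joins an enzyme of each class and is in neither list.

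The 12 cytosolic synthetases listed here as ATF4-responsive, from general knowledge of human and mouse cells, went both ways, with 6 lower, 4 higher and 2 not called (median log2 fold change -0.43). These are 50% lower and 33.3% higher, beside 41.7% lower and 40.6% higher among all genes tested, so the counts do not set the list apart. The 4 that rose were WARS, CARS, MARS and TARS, and EPRS, LARS, IARS, NARS, AARS and YARS fell. The other 8 cytosolic genes all fell (median -0.69). ATF4 mRNA itself had 569, 575 and 579 CPM with mebendazole, against 275, 291 and 295 CPM with DMSO (log2 fold change 1.00, adjusted p = 1.5e-38, edgeR). Its treated libraries were all well above the controls, and ATF4 is named after its values were seen.

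Promoters were searched for the letters TGATGNAA, the core of the composite element that ATF4 binds with C/EBP partners. RefSeq promoter windows (build GRCh38.p14, 250 bases before to 50 bases after each start) were found for 30 of the 36 genes, 16 cytosolic and 14 mitochondrial. No window was found for DARS, LARS, VARS, YARS, AARS2 and VARS2, so these genes were not searched for any letters. The letters TGATGNAA, read on both strands, were in a window of 7 of the 16 cytosolic genes (AARS, CARS, GARS, IARS, MARS, NARS and TARS), of 1 of the 14 mitochondrial genes (YARS2) and of 4.46% of all 27305 genes with a window. The exact form TGATGCAA was in 6 of the 16 (37.5%), in 0 of the 14 and in 1.08% of all genes. Stretches around these matches are shown on each gene's own strand, with the match in capitals, which reads as the reverse complement in all but NARS and YARS2.
AARS, chr16:70289670-70289717, minus strand: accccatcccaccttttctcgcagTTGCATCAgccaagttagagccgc
CARS, chr11:3057402-3057449, minus strand: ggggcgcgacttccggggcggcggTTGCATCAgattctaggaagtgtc
GARS, chr7:30594821-30594868, plus strand: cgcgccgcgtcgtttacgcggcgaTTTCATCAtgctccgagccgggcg
IARS, chr9:92293687-92293734, minus strand: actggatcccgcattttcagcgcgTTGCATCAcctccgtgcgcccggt
MARS, chr12:57488040-57488087, plus strand: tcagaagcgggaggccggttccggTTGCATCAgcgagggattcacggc
NARS, chr18:57621807-57621846, minus strand: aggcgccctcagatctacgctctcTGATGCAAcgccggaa
TARS, chr5:33440943-33440990, plus strand: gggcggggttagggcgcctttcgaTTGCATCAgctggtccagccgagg
YARS2, chr12:32756071-32756118, minus strand: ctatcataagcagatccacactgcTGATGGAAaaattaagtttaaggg
The match lies within 33 bases of the start in all of these but AARS, where it is at -187 to -180, and YARS2, where it is at -197 to -190. Genes with these letters did not move together: AARS (-1.01), IARS (-1.34), NARS (-1.03) and YARS2 (-0.35) fell on the log2 scale, MARS (0.56) and CARS (0.58) rose, and TARS (0.10) and GARS (-0.06) lay near 0. A match of letters is a description and not a binding site shown in these cells.

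WARS, whose rise was the largest, has 2 listed starts, and the window of the downstream one holds GAAA, 2 bases of any kind and GAAA again, the core of the element bound by interferon regulatory factors (at -55 to -46), and TTCNNNGAA, the core of the gamma-activated sequence (at -142 to -134). Searched on both strands, the interferon element core was in 4.38% and the gamma-activated sequence core in 9.38% of all genes with a window. The interferon element core was also found for EARS2, and the gamma-activated sequence core for CARS, TARS, PARS2 and WARS2, which went in different directions. In the stretch shown, both matches are in capitals and do not overlap.
WARS, chr14:100375378-100375504, minus strand: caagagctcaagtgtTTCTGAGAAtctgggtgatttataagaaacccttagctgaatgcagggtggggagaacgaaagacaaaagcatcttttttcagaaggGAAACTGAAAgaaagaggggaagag
Genes known to respond to interferon gamma did not share one direction. Of 12, 10 were tested, and 6 were higher and 3 lower (median log2 fold change 1.12). These are 60% higher and 30% lower, beside 40.6% higher and 41.7% lower among all genes tested. ICAM1, an adhesion molecule, and IFI30, a lysosomal thiol reductase, rose 16.5-fold and 7.52-fold, while PSMB9, an immunoproteasome subunit, fell to 1.88 ± 0.258 CPM with mebendazole, against 12.6 ± 2.05 CPM with DMSO (SD, n = 3 each; log2 fold change -2.74).

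Among mitochondrial genes, the E-box letters CACGTG, read by MYC and related factors, were in a window of 3 of 14 (CARS2, EARS2 and MARS2), of 1 of 16 cytosolic genes (IARS) and of 8.77% of all genes. Stretches of the 3 mitochondrial genes are shown with the E-box in capitals. EARS2 (-2.05 on the log2 scale) among them is the gene that fell most, while MARS2 (-0.82) and CARS2 (-0.35) fell less. NARS2 (-1.83) fell without these letters in its window. Any part of the E-box in these changes was not tested.
EARS2, chr16:23557344-23557389, minus strand: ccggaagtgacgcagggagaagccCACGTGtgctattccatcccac
CARS2, chr13:110706497-110706542, minus strand: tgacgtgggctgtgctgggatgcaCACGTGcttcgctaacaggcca
MARS2, chr2:197705334-197705379, plus strand: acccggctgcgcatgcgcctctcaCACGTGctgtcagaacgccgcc
HARS and HARS2 start 85 bases apart and point away from each other, so the 84 bases between their starts are upstream of both. That stretch is shown on the strand of HARS2, and none of the searched letters is in it.
HARS and HARS2, chr5:140691371-140691454, plus strand: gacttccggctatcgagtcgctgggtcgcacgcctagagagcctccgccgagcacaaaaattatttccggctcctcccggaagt
HARS (-0.29) fell and HARS2 (0.22) rose with TMM scaling, and with library totals HARS (-0.53) was lower and HARS2 (-0.021) was not called.

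Most genes that act around charging fell. Of 14 accessory genes, 13 were tested, and 9 fell and 1 rose (median log2 fold change -0.43). These are 69.2% lower and 7.69% higher, beside 41.7% lower and 40.6% higher among all genes tested. DTD1, which removes D-amino acids from tRNAs, had 4.96, 3.99 and 4.41 CPM with mebendazole and 17.7, 16.8 and 18.5 CPM with DMSO (-1.99). PET112 and QRSL1, subunits of the mitochondrial enzyme that makes glutaminyl-tRNA from the product of EARS2, fell (-1.47 and -0.73 on the log2 scale), and the gene of the remaining subunit, GATC, was called higher (0.19) but lay at -0.053, not called, with library totals. SEPHS1, of the selenophosphate synthetase family, fell too (-0.89).

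Elongation factors of the cytosol were higher with TMM scaling and mixed with library totals, and most mitochondrial factors fell. With TMM scaling all 5 cytosolic factors were called higher, but with library totals 3 were higher, EEF1G (0.007) was not called and EEF1B2 (-0.12) was lower. Among all genes tested, 40.6% were called higher with TMM scaling and 30.8% with library totals. With TMM scaling, EEF1A1, which brings charged tRNA to the ribosome, averaged 10661 ± 347 CPM with mebendazole and 8091 ± 195 CPM with DMSO (SD, n = 3 each; log2 fold change 0.40). The log2 fold change was 0.48 for EEF2, which moves the ribosome along, and 0.38, 0.25 and 0.13 for EEF1D, EEF1G and EEF1B2, of the factor that recharges EEF1A1. Of 9 mitochondrial elongation, initiation and release factors, 6 fell and 1 rose (median -0.26). These are 66.7% lower and 11.1% higher, where 41.7% of all genes tested were lower and 40.6% higher. TUFM, the mitochondrial counterpart of EEF1A1, averaged 144 ± 2.21 CPM with mebendazole and 215 ± 6.16 CPM with DMSO (-0.58), and MTIF2, GFM2 and GFM1 fell too (-0.83, -0.86 and -0.60).

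Of 24 amino acid response genes, 14 rose and 9 fell, and their median was 0.54 on the log2 scale. These are 58.3% higher and 37.5% lower, beside 40.6% higher and 41.7% lower among all genes tested. With library totals 12 were higher and 11 lower, with a median of 0.30. Among all genes tested, library totals gave 30.8% higher and 53.9% lower, with a median of -0.27. The 4 of the list with the smallest p all rose. They were SLC7A11, the cystine transporter, at 7.76-fold, PPP1R15A, which restores translation after stress, at 5.65-fold, DDIT4, an inhibitor of mTORC1, at 6.71-fold, and TRIB3, a target and inhibitor of ATF4, at 3.25-fold. The biosynthetic enzymes of the list mostly went the other way. ALDH18A1 (-2.81) and PYCR1 (-2.71) of proline synthesis and PSAT1 (-2.49) and PHGDH (-1.52) of serine synthesis fell on the log2 scale, as did SHMT2 (-0.34), which passes the carbon of serine to folate, while MTHFD2 (0.92) of the mitochondrial folate pathway rose. ASNS, asparagine synthetase, also fell, with 18.9, 16.6 and 17.5 CPM with mebendazole and 35.2, 32.6 and 30.9 CPM with DMSO (-0.90, adjusted p = 3.4e-18, edgeR). The rest of the 9 that fell were NUPR1 (-2.01), EIF2AK4 (-0.51) and SLC7A1 (-0.14). DDIT3 was called higher by little (0.12) but lower with library totals (-0.12). CHAC1 was not called (-0.67) and was lower with library totals (-0.91). The enzymes and these further genes were named after their values were seen.

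**Figure D4:**
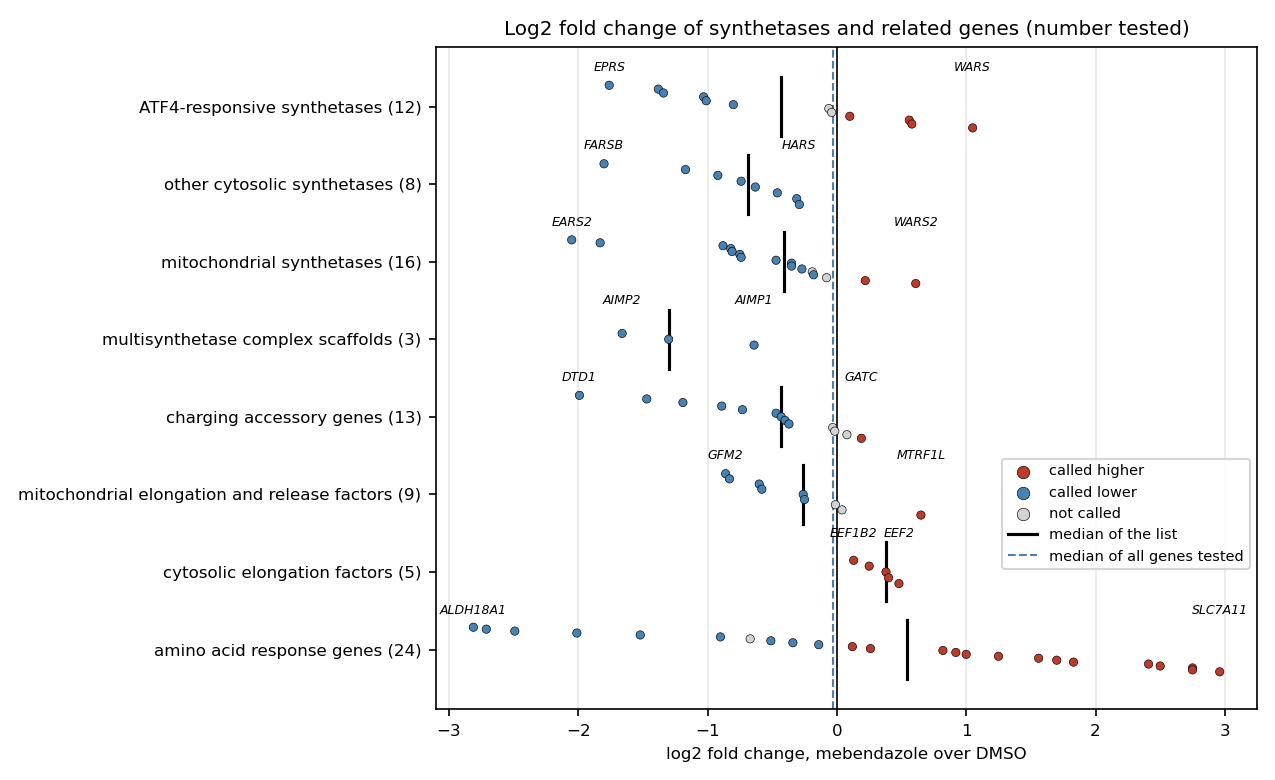
Log2 fold change (mebendazole over DMSO) of synthetases and related genes by list, each point a gene, coloured by its call in edgeR, with the median of each list as a black bar and that of all genes tested as a dashed line. The ATF4-responsive synthetases run from EPRS (-1.76) to WARS (1.05), the 8 other cytosolic synthetases lie below 0, and the 5 cytosolic elongation factors lie above 0 with TMM scaling, where library totals put EEF1B2 below 0.

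Library totals ranged from 13420558 to 15727667 counts, and libraries of 1 group correlated at 0.997 or more (Spearman, across genes). The line was checked with monocyte markers. LYZ, CSF1R and CD68 averaged 239.9 ± 10.9, 339 ± 9.63 and 443 ± 3.70 CPM with mebendazole and 388 ± 2.68, 453 ± 22.5 and 413 ± 16.7 CPM with DMSO (SD, n = 3 each). Of 12 such genes, 11 were tested, and 8 fell and 2 rose. These are 72.7% lower and 18.2% higher, beside 41.7% lower and 40.6% higher among all genes tested. MNDA (-5.55), S100A9 (-2.55) and CD33 (-1.76) fell and SPI1 (0.98) rose. CD68 rose (0.10) but fell with library totals (-0.14), and FCN1 had 1 read in all. Of 17 markers of other cell types, 3 were tested, HBA1 and COL1A2 had no read in any library, and the list summed to 128 to 150.1 CPM with mebendazole and 92.1 to 103 CPM with DMSO, nearly all of it PECAM1 (135 ± 11.3 CPM with mebendazole and 94.2 ± 5.91 CPM with DMSO), which monocytes also express. KRT8 was called higher (not with library totals) at 1.51 CPM with mebendazole and 0.877 CPM with DMSO, and COL1A1 was not called. The part of these markers in the results on synthetases was not tested.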

How the data were processed

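The authors deposited raw counts of reads for each gene symbol, and 0 columns of the table belong to no sample. STAR, bedtools, HTSeq and DESeq2 and the build hg19 are named without roles, per the submitters' processing notes; not given in the sources used here: annotation, filters and strand setting. Tests used edgeR 4.0.16 under R 4.3.3: filterByExpr (13591 genes, 99.9% of reads), TMM, and the two-sided quasi-likelihood F test with the sample pair as a term, because each sample's labels carry a sample pair number and the series is described as paired. Deviations of same-numbered samples correlated at -0.001, 0.061 and 0.016. P-values were adjusted by Benjamini-Hochberg over all genes tested. The SE is the absolute log2 fold change divided by the square root of F. The spread is largely pooled over genes (prior of 61 against 2 residual degrees of freedom), so very small p-values rest mostly on it. The fits were tried on simulated counts with a small set of changed genes, as many raised as lowered, and no pair effect. Most genes differed in the data, so that trial does not check the scaling or the pair term. Replicates differed by more than counting noise (chi-square over degrees of freedom 1.43 to 3.23), so none was treated as deposited again.

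The members and gene lists were chosen with earlier results of these data known. All members are named, and of each other list the 4 tested genes with the smallest p, or all of a list of 5 or fewer, except 1 gene that is not reported here; further genes are examples chosen after their values were seen. Transcript lengths and shared stretches come from GENCODE release 29, and promoters from RefSeq, matched by symbol. Alternatives were library totals, DESeq2 1.42.0, no filter, a mean CPM of 10 or more, no replicate block, each pair left out, and a test against a 1.5-fold change.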

Additional observations from a re-analysis of the deposited data

How the results depend on the processing

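Of 36 members, 28 kept their sign and call in every alternative in which they were tested, setting aside the test against a 1.5-fold change. With library totals the medians moved to -0.93 for cytosolic and -0.65 for mitochondrial genes, the log2 ratios of the summed levels to -0.83 and -0.78, 1 mitochondrial gene was higher, and TARS (-0.14) and HARS2 (-0.021) reversed, by the shift that this scaling gives all genes. RARS2 reversed without pair 3 (0.0051, not called; the cause was not tested). The test against a 1.5-fold change asks for a larger change and called 5774 genes (42.5% of all genes tested), 2896 higher and 2878 lower. Among them were 1 cytosolic gene higher and 10 lower of 20, and 0 mitochondrial genes higher and 6 lower of 16. In either direction it called 5 of 8 complex enzymes and 6 of 12 cytosolic genes outside the complex. It called 7 of 18 class I and 9 of 17 class II genes. It also called 5 of 13 accessory genes, 0 of 5 cytosolic and 2 of 9 mitochondrial translation factors and 0 of 3 markers of other cell types. Of those markers 1 was called with library totals, DESeq2, a mean CPM of 10 or more, or without pair 3, against 2. Without 1 pair, 10572 to 10885 genes were called, 3 to 4 cytosolic genes were higher and 14 to 15 lower, and 2 mitochondrial genes were higher and 11 to 12 lower. In those fits, 38.2% to 39.8% of all genes tested were higher and 39% to 39.9% lower. With no replicate block, 11118 genes were called and no member changed its call. Of FARS2, PARS2 and NARS2, each under 10 CPM with mebendazole, the first and second were not tested at a mean CPM of 10 or more; depth limits these genes most. Leaving out 1 sample of a pair leaves its partner unpaired, so whole pairs were left out.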
